A study of Mus musculus with 16 samples.

Results

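Regulator of G protein signalling (RGS) proteins switch off signals from G protein-coupled receptors. Angiotensin II (AngII), a vasoconstrictor peptide, binds the AT1 receptor, which activates the G protein Gq, phospholipase C, release of calcium by IP3 and contraction of vascular smooth muscle. RGS proteins speed the hydrolysis of GTP on the G protein alpha subunit and so shorten that signal. The genes described here are the 5 RGS genes Rgs2, Rgs3, Rgs4, Rgs5 and Rgs16, taken by gene symbol from a count table of 29695 genes. All 5 passed the filter on low counts, as did 15984 genes in all. They were named as regulators of Gq signalling with earlier results of these data known, although the rule itself holds no threshold on a value.

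RNA came from the suprarenal aorta (the stretch of abdominal aorta just above the kidneys) of male mice. The 4 groups were C57BL/6 wild type (WT) with saline, WT with AngII at 1000 ng/kg/min, Vamp8-/- knockout (KO) with saline and KO with the same dose of AngII, with 4 libraries each that the labels call biological replicates. Vamp8 codes for a vesicle SNARE that takes part in endosome fusion and exocytosis. Saline or AngII was delivered for 5 days by a minipump under the skin, and the submitters had left out aortae with intramural haemorrhage or visible pathology. The labels name no cell type or promoter that restricts the knockout. Neither the age of the mice nor the strain background of the knockout is given.

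Total counts ran from 13284804 to 21643548 per library. Vamp8 was at 45.9 to 60.9 CPM (counts scaled to library size by TMM) in the 8 WT libraries and at 14.1 to 31.4 CPM in the KO libraries other than the one labelled KO saline replicate 1. That library held 53.3 CPM after TMM scaling, within the WT range and against its label. Per library total alone, without TMM, it held 38.2 CPM, below the 51.0 to 63.4 CPM of the WT libraries, so the mismatch depends on the scaling. Each member's differences from KO saline are also given without it. The edgeR log2 difference of Vamp8, KO less WT, was -1.29 with AngII (adjusted p = 0.00981) and -0.61 with saline (adjusted p = 0.147). KO AngII replicate 4 stood apart in markers of neurons and adrenal chromaffin cells (summed level of 11 markers 4131 CPM, against 27.1 to 274.6 CPM in the other 15 libraries). KO saline replicate 3 stood apart in skeletal muscle markers (647 CPM, against 3.45 to 27.4 CPM in the other 15), and without it Rgs5 was at -1.43 on the log2 scale in KO saline against WT saline (adjusted p = 0.0929). Of the smooth muscle markers, Acta2, smooth muscle actin, was at 3249 CPM or more in every library. Myh11, smooth muscle myosin, was at 1444 CPM or more in every library, whereas the marker Tagln was listed at only 16.6 to 61.2 CPM. Mitochondrially encoded genes took 27.0% to 32.8% of counts in KO saline libraries and 8.33% to 24.3% in the other 12. The table gave no symbol to 2725 genes, exactly those with 0 reads in all 8 WT libraries. Whether both genotypes were counted in the same way is not given, so a difference in counting cannot be told apart from genotype.

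In the aorta, RGS proteins set how long constrictor signals last. RGS2 is selective for Gq, and mice without it are hypertensive. RGS4, RGS5 and RGS16 act on Gq and Gi alpha subunits, and RGS5 is a widely used marker of arterial smooth muscle and pericytes. The cysteine at the start of RGS4, RGS5 and RGS16 makes these proteins targets of the N-degron pathway, which destroys them in the presence of oxygen and nitric oxide. Protein levels can therefore depart from the transcript levels given here.

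Rgs2, Rgs4, Rgs5 and Rgs16 lie on chromosome 1 and Rgs3 lies on chromosome 4. Rgs5 and Rgs4 are direct neighbours among protein-coding genes, on opposite strands, and Rgs16 lies beside Rgs8 and Rgs2 beside Rgs13. The stretches around the start sites of the chromosome 1 genes are shown because they share a sequence feature that the choice of genes did not use. Each has 1 CCAAT box (CCAAT, or ATTGG where the box is on the other strand, in capitals) between 94 and 57 bases before the start. The stretches come from RefSeq on build GRCm38.p6, not the GRCm39 build of the counts, and hold 110 bases before the start and 10 after it, 5′ to 3′ on the strand of the gene. That of Rgs2 is chr1:144004140-144004259 (minus strand), that of Rgs16 chr1:153740243-153740362 (plus), that of Rgs5 chr1:169655391-169655510 (plus) and that of Rgs4 chr1:169747633-169747752 (minus).
Rgs2: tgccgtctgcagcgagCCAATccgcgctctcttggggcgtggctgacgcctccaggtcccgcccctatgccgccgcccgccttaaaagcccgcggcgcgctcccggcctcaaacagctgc
Rgs16: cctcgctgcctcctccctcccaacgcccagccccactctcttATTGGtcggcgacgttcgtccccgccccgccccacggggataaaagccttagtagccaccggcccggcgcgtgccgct
Rgs5: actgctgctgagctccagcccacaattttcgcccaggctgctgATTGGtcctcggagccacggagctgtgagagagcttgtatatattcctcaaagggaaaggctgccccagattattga
Rgs4: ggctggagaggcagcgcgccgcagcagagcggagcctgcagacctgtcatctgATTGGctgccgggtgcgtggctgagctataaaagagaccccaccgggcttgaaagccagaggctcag

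Of 32851 RefSeq promoters of 300 bases, 37.4% held a CCAAT box on either strand, and neither of the 2 promoters listed for Rgs3 did. Other motifs were searched on both strands of the same promoters, and no match in a member overlapped another. TATAAA was in the Rgs4 promoter and in both Rgs3 promoters, against 13.6% of all promoters. TGACG, the core of the cAMP response element, was in the Rgs2 and Rgs4 promoters, against 20.8%. The CArG box, which binds serum response factor, was in 0 of the 6 and in 1.63% of all promoters. These matches describe the letters only.

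The 5 transcripts spanned a wide range of levels. Per kb of annotated exon, Rgs5 was the highest of the 21 listed genes with an Rgs symbol and a row in the table. Its mean was 212.7 CPM per kb over the 16 libraries. Rgs7bp and Rgs9bp, which are counted among the 21, code for anchors of RGS proteins. Rgs4 followed at 42.8 and Rgs2 at 22.1 CPM per kb. Rgs3 stood at 6.05 CPM per kb, and Rgs16 was low at 1.08 CPM per kb, from 7 to 110 reads per library. Rgs3 has many transcripts, from a short RGS form to long forms with a PDZ domain, and counts per gene do not separate them. Over its longest transcript its level was 13.9 CPM per kb. In each of the 4 groups the mean fell in the same order, from Rgs5 to Rgs4 to Rgs2.

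**Figure D1:**
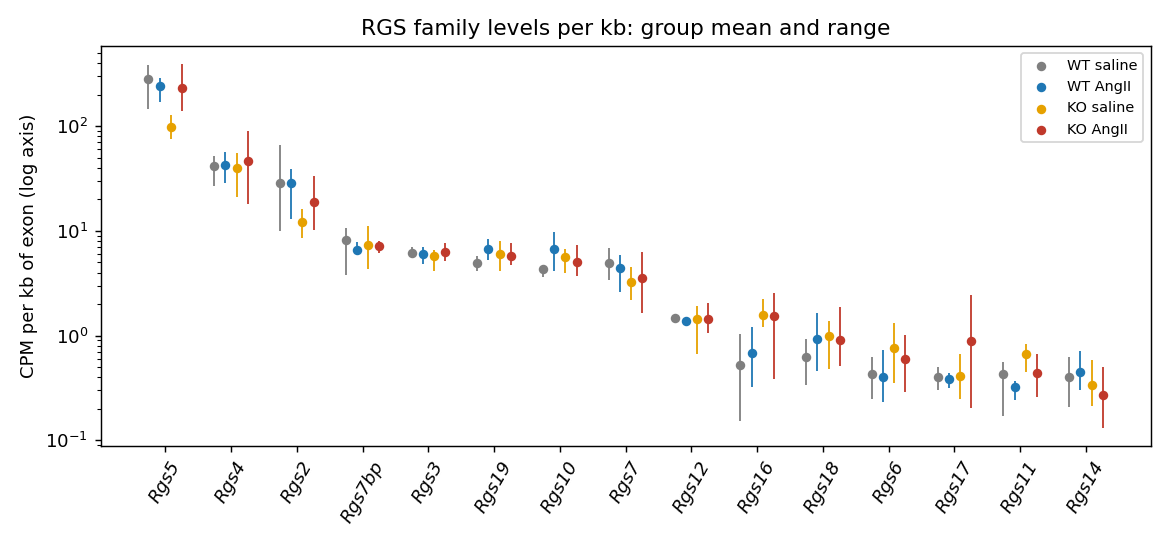
Level of each listed gene with an Rgs symbol and a mean of at least 0.3 CPM per kb of exon (log axis), by group. Points are means and lines run from the lowest to the highest of 4 libraries. Rgs5, at a mean of 212.7 CPM per kb, lies above Rgs4 at 42.8 and Rgs2 at 22.1, and its KO saline range lies below its other 3 ranges.

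Rgs5 was the only member with a called difference between groups by edgeR. In WT saline its levels were 1739, 662, 1588 and 1086 CPM in replicates 1 to 4. In KO saline they were 578, 500, 356 and 340 CPM. Every KO saline library was below each of the 12 libraries of the other groups, so KO saline did not overlap WT saline. Rgs5 fell 2.86-fold in KO saline against WT saline, from 1269 ± 491 to 443 ± 115 CPM (SD, n = 4). By edgeR's quasi-likelihood test the log2 fold change was -1.52 with a standard error (SE) of 0.36, and the p-value adjusted over all genes was 0.0361.

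It was the only member called in that comparison, 1 of 5, all lower, where 3.01% of all genes tested were called in either direction and 1.78% lower. DESeq2 also called 1 member, Rgs5 (adjusted p = 0.00106; 8.52% of all genes), and limma voom with quality weights called 2, Rgs5 and Rgs16 (20% of all genes). The call was close to its threshold. It was lost when any 1 of 7 of the 8 libraries compared was left out, which are WT saline replicates 1, 3 and 4 and all 4 KO saline libraries (log2 fold change -1.70 to -1.33, adjusted p 0.0574 to 0.117). Without the library labelled KO saline replicate 1 the log2 fold change was -1.70 (adjusted p = 0.0574), and with KO AngII replicate 4 left out as well it was -1.67 (adjusted p = 0.0361). Fitted on the WT saline and KO saline libraries alone, it did not pass (-1.53, adjusted p = 0.0633). The log2 fold change stayed negative under every setting in the plot of Rgs5 by setting.

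**Figure D2:**
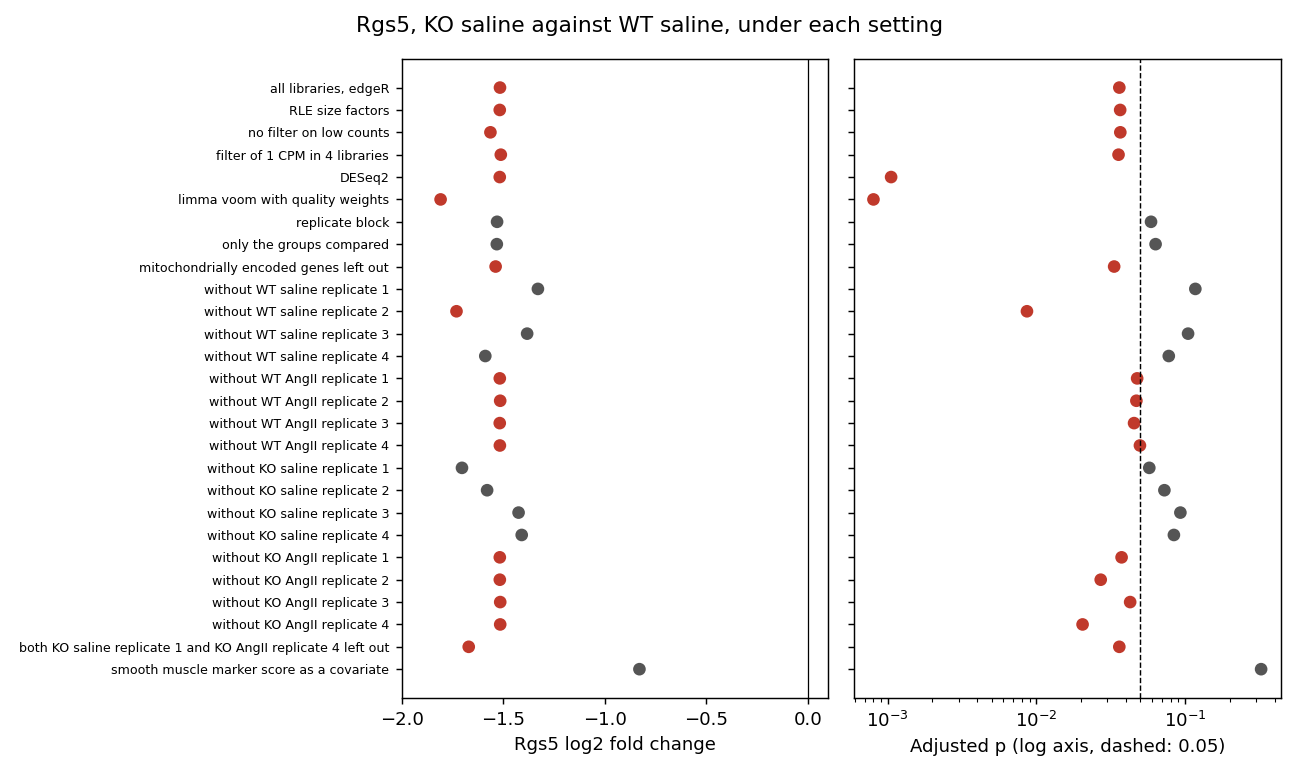
Log2 fold change (left) and adjusted p (right, log axis) of Rgs5 in KO saline against WT saline under each setting; red points have an adjusted p under 0.05. Values lie between -1.81 and -0.83, and the weakest is the fit with the smooth muscle marker score.

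Rgs5 and smooth muscle transcripts were both low in KO saline, but they did not follow each other in every library. The summed level of 10 smooth muscle markers was 21941, 8103, 21621 and 20344 CPM in WT saline replicates 1 to 4. It was 8768, 9211, 9140 and 11843 CPM in KO saline. WT saline replicate 2 was thus low in both these markers and Rgs5. Within KO saline, replicate 4 had the highest marker sum and the lowest Rgs5 (340 CPM). Replicate 1 had the lowest sum and the highest Rgs5 (578 CPM). WT AngII replicate 4 had a sum of 12142 CPM, near that of KO saline replicate 4, with 1312 CPM of Rgs5. KO AngII replicate 4 had the lowest sum of all libraries (5886 CPM), with 628 CPM of Rgs5, above every KO saline library. KO AngII replicates 2 and 3 were above every KO saline library in both. Their sums were 17035 and 17181 CPM, with 1779 and 1060 CPM of Rgs5. Of the 10 markers, 9 had a negative log2 fold change in KO saline against WT saline (median -0.93, against 0.05 over all genes). EdgeR called 0 of them, with 8 at an unadjusted p under 0.05, while limma voom called 8 and DESeq2 2. Over all genes in this comparison, 3492 of 15984 had an unadjusted p under 0.05, and limma voom called 20% and DESeq2 8.52%. Without the library labelled KO saline replicate 1, 9 of the markers were negative with a median of -0.84. There 0 markers were called by edgeR and 4 had an unadjusted p under 0.05. Per 100 CPM of these markers, Rgs5 was at 7.92, 8.17, 7.34 and 5.34 CPM in WT saline and at 6.59, 5.43, 3.89 and 2.87 CPM in KO saline, ranges that overlap. With the marker score as a covariate, a fit chosen after the data were seen, the log2 fold change of Rgs5 was -0.83 (SE 0.31, adjusted p = 0.324). In bulk tissue, fewer cells of a type and less RNA per cell cannot be told apart.

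**Figure D3:**
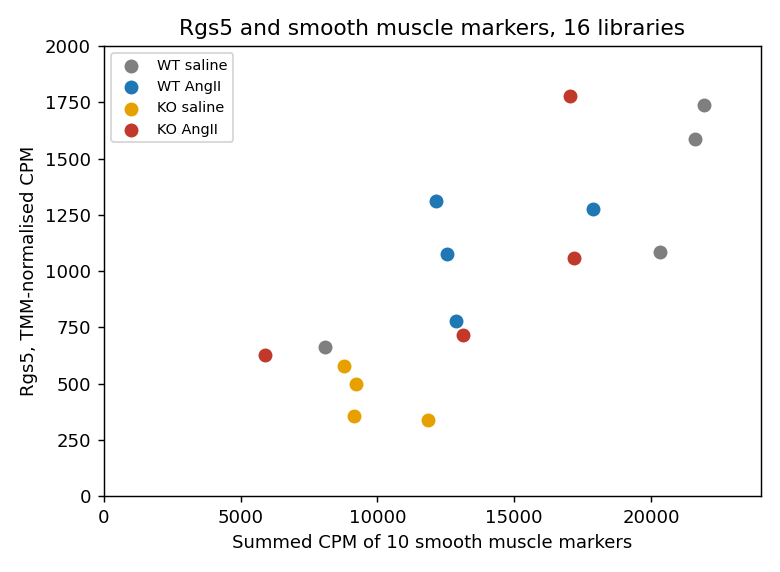
Rgs5 level against the summed level of 10 smooth muscle markers, both in TMM-normalised CPM, 1 point per library. KO saline libraries sit at the lower left (340 to 578 CPM of Rgs5), beside WT saline replicate 2 at 662 CPM and KO AngII replicate 4 at 628 CPM.

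Pericyte markers, the other main source of Rgs5, did not shift together in KO saline against WT saline. Of 10 markers, 5 had a negative log2 fold change and the median was 0.17, with 1 called lower, Mcam, 8 at an unadjusted p under 0.05, 5 called by DESeq2 and 6 by limma voom. Their summed level was 864 to 1565 CPM in KO saline and 1163 to 2147 CPM in WT saline. General adipocyte markers summed to 7237 to 15725 CPM in KO saline and to 2544 to 12426 CPM in WT saline. All 8 had a positive log2 fold change (median 0.77), with 0 called by edgeR or DESeq2, 0 at an unadjusted p under 0.05 and 6 called by limma voom. Fibroblast markers summed to 4091 to 5985 CPM in KO saline and to 6802 to 12249 CPM in WT saline, without overlap. Of these 8 markers, 6 had a negative log2 fold change (median -0.21), with 0 called by edgeR, 3 at an unadjusted p under 0.05, 2 called by DESeq2 and 2 by limma voom. All 8 endothelial markers had a positive log2 fold change (median 0.63), with 0 called by edgeR, 3 at an unadjusted p under 0.05, 3 called by DESeq2 and 5 by limma voom. The part of these cell types in the result was not tested. Of all genes in this comparison, 3492 of 15984 had an unadjusted p under 0.05. EdgeR called 3.01% of them (1.78% lower), DESeq2 8.52% and limma voom 20%. With mitochondrially encoded genes left out before scaling, the log2 fold change of Rgs5 was -1.54 (adjusted p = 0.0333).

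AngII gave no called change of Rgs5 in either genotype by edgeR. In WT AngII its levels were 777, 1076, 1275 and 1312 CPM, all within the WT saline range (log2 fold change -0.19, SE 0.35, adjusted p = 0.990). In KO AngII they were 715, 1779, 1060 and 628 CPM, each above every KO saline library. The difference from KO saline was 1.24 on the log2 scale (SE 0.36, adjusted p = 0.140, unadjusted p = 0.00334). It was called by DESeq2 (adjusted p = 0.0224) and by limma voom (1.61, adjusted p = 0.0188). Without the library labelled KO saline replicate 1 it was 1.40 by edgeR (adjusted p = 0.184). With both KO AngII replicate 4 and the library labelled KO saline replicate 1 left out it was 1.57 (adjusted p = 0.135). With the smooth muscle marker score it was 0.72 (adjusted p = 0.205). Under AngII, KO and WT overlapped (log2 fold change -0.09, SE 0.35, adjusted p = 0.950).

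The order of group means of Rgs5 was WT saline, WT AngII, KO AngII and KO saline, and the first 3 overlapped. Whether AngII acted differently by genotype was tested by the interaction, which was 1.43 on the log2 scale (SE 0.50) and did not pass by edgeR (adjusted p = 0.406) or DESeq2 (0.151) but did by limma voom (2.12, adjusted p = 0.0390). The edgeR value was 1.59 (adjusted p = 0.478) without the library labelled KO saline replicate 1. A different response was therefore not shown by the main test.

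**Figure D4:**
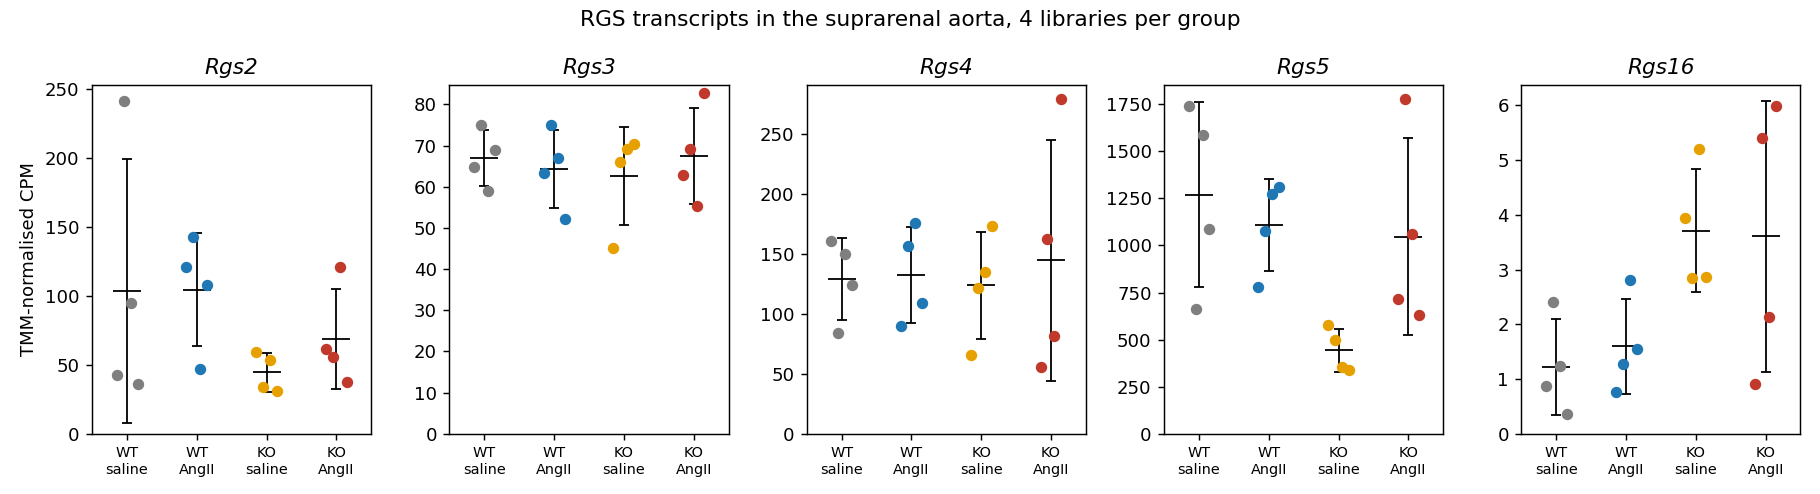
TMM-normalised CPM of each gene by group, 1 point per library (replicates 1 to 4 from left to right), with the mean and SD. The 4 KO saline libraries of Rgs5 sit between 340 and 578 CPM, below all others, while the groups of Rgs3 and Rgs4 overlap throughout.

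Rgs4, the chromosome 1 neighbour of Rgs5, did not share its pattern. RGS4 is abundant in neurons and is also made by smooth muscle. In WT saline Rgs4 was at 161, 83.6, 150 and 124 CPM, and in KO saline at 65.3, 121, 135 and 173 CPM. The groups overlapped (log2 fold change -0.06, SE 0.42, adjusted p = 0.941), and the lowest KO value was that of the library labelled KO saline replicate 1, without which the log2 fold change was 0.11 (adjusted p = 0.928). In WT AngII it was at 89.6, 156, 176 and 109 CPM (0.04, SE 0.42, adjusted p = 1.00 against WT saline).

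KO AngII libraries held 56.0, 162, 81.3 and 279 CPM of Rgs4, the last in replicate 4, the library with the high neuron and chromaffin markers. In that library 4 other RGS genes, chosen after their values were seen, were well above the other 15 libraries. Its Rgs9 count was 262 against 22 or fewer elsewhere, its Rgs8 count 128 against 8 or fewer, its Rgs17 count 356 against 117 or fewer and its Rgs20 count 52 against 3 or fewer. Other genes with an Rgs symbol were mixed there. By CPM, Rgs6 was at 6.96 against up to 13.3 elsewhere, Rgs7 at 38.0 against up to 40.8 and Rgs7bp at 43.6 against up to 79.0. By reads, Rgs7 was highest there, at 666 against 626 or fewer. Rgs12 was highest there by both, with 305 reads against 263 or fewer and 17.4 CPM against up to 16.1. KO AngII against KO saline gave 0.23 for Rgs4 (SE 0.42, adjusted p = 0.783) with this library and -0.32 (SE 0.38, adjusted p = 0.685) without it, so the direction rested on it. It was 0.010 (adjusted p = 0.994) without the library labelled KO saline replicate 1. Against WT AngII the values were 0.12 (adjusted p = 0.938) with it and -0.44 (adjusted p = 0.695) without it. The order of means was KO AngII, WT AngII, WT saline and KO saline, and all neighbours in it overlapped.

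Rgs2 varied most among WT saline libraries. As the Gq-selective member, RGS2 is itself a target of cGMP-dependent kinase in smooth muscle. Rgs2 was at 42.6, 241, 94.5 and 35.8 CPM in WT saline and at 121, 143, 46.9 and 108 CPM in WT AngII. The means were 103 ± 95.4 and 104 ± 41.0 CPM (SD, n = 4; log2 fold change 0.01, SE 0.54, adjusted p = 1.00). The highest of the 16 values was that of WT saline replicate 2. Without that library the difference was 0.86 (SE 0.46, adjusted p = 0.474), so the WT value rested on it and did not pass either way. It also varied with the tool. With all libraries limma voom gave 0.88 (SE 0.41, unadjusted p = 0.0472, adjusted p = 0.254).

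In KO saline Rgs2 was at 59.2, 33.9, 53.6 and 30.9 CPM and in KO AngII at 61.1, 55.9, 121 and 37.2 CPM. The KO groups overlapped (log2 fold change 0.63, SE 0.54, adjusted p = 0.522, and 0.81 with adjusted p = 0.598 without the library labelled KO saline replicate 1). KO saline against WT saline gave -1.22 (SE 0.54, unadjusted p = 0.0405, adjusted p = 0.211), -0.38 (adjusted p = 0.602) without WT saline replicate 2, and -1.43 (adjusted p = 0.268) without the library labelled KO saline replicate 1. KO AngII against WT AngII gave -0.60 (SE 0.54, adjusted p = 0.638). By mean the order was WT AngII, WT saline, KO AngII and KO saline, and no neighbours differed beyond their spread.

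Rgs16, a member that immune cells raise on activation, was the only one with higher levels in KO saline than in WT saline without overlap. Its levels were 0.881, 2.41, 1.24 and 0.358 CPM in WT saline and 3.94, 2.84, 5.20 and 2.86 CPM in KO saline. These rest on 7 to 37 reads in WT saline and 37 to 74 in KO saline. The 3.04-fold difference did not pass by edgeR (log2 fold change 1.60, SE 0.61, adjusted p = 0.152). It was called by limma voom (2.09, adjusted p = 0.0252) and by edgeR without WT saline replicate 2 (2.16, adjusted p = 0.0479). Without the library labelled KO saline replicate 1 it was 1.54 (adjusted p = 0.262). Lymphocyte markers were low, with a summed level of 10.9 to 29.2 CPM in KO saline and 9.32 to 28.7 CPM in WT saline, and macrophage markers summed to 308 to 412 and 289 to 591 CPM.

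Under AngII, Rgs16 was at 0.755, 1.27, 2.81 and 1.55 CPM in WT and at 0.909, 5.41, 2.13 and 5.99 CPM in KO. These overlapped (log2 fold change 1.18, SE 0.60, adjusted p = 0.324). The highest value was that of KO AngII replicate 4, without which the difference was 0.80 (adjusted p = 0.646). Against saline, AngII gave 0.39 in WT (SE 0.61, adjusted p = 0.978) and -0.04 in KO (SE 0.58, adjusted p = 0.979). The KO value was -0.0093 (adjusted p = 0.997) without the library labelled KO saline replicate 1. The order of means was KO saline, KO AngII, WT AngII and WT saline, with overlap between neighbours. In the annotation Rgs16 shares exon sequence with Gm28513, a gene on the opposite strand, and the strand setting of the counting is not given, so its reads are not certain to be its own.

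Rgs3 was the steadiest member. It lay between 45.1 and 82.9 CPM in all 16 libraries. The 4 KO saline libraries held 45.1, 66.0, 69.1 and 70.4 CPM, the lowest being the library labelled KO saline replicate 1, and all 4 groups overlapped. Group means were 67.6 ± 11.7 CPM with AngII in KO, 67.0 ± 6.75 with saline in WT, 64.4 ± 9.50 with AngII in WT and 62.6 ± 11.8 with saline in KO (SD, n = 4). Its log2 fold changes ran from -0.10 for KO saline against WT saline to 0.11 for KO AngII against KO saline (SE 0.16 for each), and none passed (adjusted p 0.724 to 1.00 over the 4 pairwise comparisons). Without the library labelled KO saline replicate 1 these 2 values were -0.0090 (adjusted p = 0.984) and -0.014 (adjusted p = 0.976), so the sign of the second changed. The highest value was that of KO AngII replicate 4.

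For AngII as such, 0 of the 5 members were called in WT by edgeR, where 0.444% of all genes were called. There 0 members had an edgeR unadjusted p under 0.05, against 1406 of 15984 genes. DESeq2 and limma voom also called 0, against 1.75% and 1.59% of all genes. In KO, 0 of 5 were called by edgeR against 0.0501% of all genes. There 1 member, Rgs5, had an unadjusted p under 0.05, as did 3072 of 15984 genes. Rgs5 was called there by DESeq2 (4.59% of all genes) and limma voom (3.51%). Averaged over both genotypes, 0 of 5 were called by edgeR (1.04% of all genes), DESeq2 (4.17%) and limma voom (3.43%). By edgeR none of the members had an unadjusted p under 0.05, against 2415 of 15984 genes. The unadjusted p of Rgs5 was 0.0367 by DESeq2. By limma voom it was 0.0185 for Rgs5 and 0.0147 for Rgs2.

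The genotypes under AngII gave 0 of 5 members called by edgeR (2.03% of all genes), DESeq2 (7.7%) and limma voom (3.63%). By edgeR no member had an unadjusted p under 0.05, against 2860 of 15984 genes. Limma voom gave Rgs16 an unadjusted p of 0.0172 (adjusted p = 0.148). For the interaction 0 of 5 were called by edgeR (0.0188% of all genes) and DESeq2 (0.651%), and 1, Rgs5, by limma voom (1.08%). Rgs5 was also the 1 member with an unadjusted p under 0.05 there, against 1793 of 15984 genes.

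Members whose groups did not overlap numbered 2 of 5 for KO saline against WT saline, where 11.1% of all genes did not overlap. These were Rgs5, lower, as were 5.94% of all genes, and Rgs16, higher, as were 5.17%. For KO AngII against KO saline the count was 1 of 5, Rgs5, where 7.77% of all genes did not overlap and 4.25% were higher. In the other pairwise comparisons it was 0 of 5, against 6.24% for AngII in WT and 9.35% for KO against WT under AngII. The median log2 fold change of the 5 members was 0.01 for AngII in WT (all genes -0.01), 0.23 for AngII in KO (all genes 0.02), -0.10 for KO saline against WT saline (all genes 0.05) and 0.07 for KO AngII against WT AngII (all genes 0.04).

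**Figure D5:**
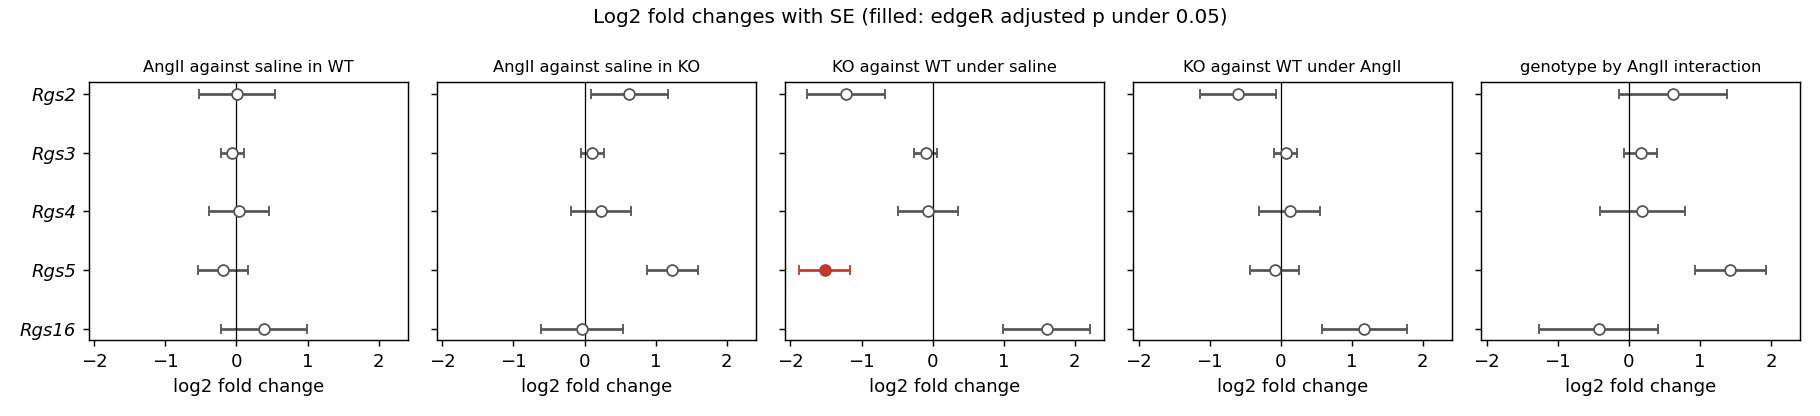
Log2 fold change of each gene in 5 comparisons, with bars of 1 SE; the filled red point has an edgeR adjusted p under 0.05. The only filled point is Rgs5 at -1.52 in KO saline against WT saline, and Rgs5 is at 1.24 for AngII in KO.

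The other genes of the pathway were read from 8 lists with 112 entries, of which 103 were tested. By edgeR, 0 of 103 were called for AngII in WT (12 at an unadjusted p under 0.05, 1 called by DESeq2, 3 by limma voom) and 0 for AngII in KO (20, 2 and 2). Over all genes the bracketed values were 1406 of 15984, 1.75% and 1.59% in WT, and 3072 of 15984, 4.59% and 3.51% in KO. For the interaction 0 of 103 were called (15, 1 and 3), and for the average AngII effect 0 (13, 4 and 3). Over all genes these were 1793 of 15984, 0.651% and 1.08%, and 2415 of 15984, 4.17% and 3.43%. In KO saline against WT saline 2 of the 103 rose and 1 fell (26 at an unadjusted p under 0.05, 14 called by DESeq2, 23 by limma voom). There 3.01% of all genes were called by edgeR, 8.52% by DESeq2 and 20% by limma voom, and 3492 of 15984 had an unadjusted p under 0.05. In KO AngII against WT AngII 1 of the 103 fell (19, 5 and 4), where edgeR called 2.03% of all genes. The other values over all genes were 2860 of 15984, 7.7% and 3.63%. Both edgeR counts are near the edgeR shares of all genes. The values over all genes apply to each list below as well.

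Among 20 Gq-coupled receptors, including the AT1 receptor genes Agtr1a and Agtr1b, 0 were called by edgeR in any comparison. Per comparison, 2 to 6 had an unadjusted p under 0.05, DESeq2 called 0 to 3 and limma voom 0 to 6. Those with the lowest unadjusted p were F2r, the thrombin receptor, at 0.69 for the average AngII effect (adjusted p = 0.109), and P2ry2, a nucleotide receptor, at -0.77 for KO saline against WT saline (adjusted p = 0.0661). Of 17 tested G protein subunits, Gng11, a gamma subunit, rose 2.08-fold in KO saline against WT saline, from 35.1 ± 5.60 to 73.0 ± 7.45 CPM (SD, n = 4; edgeR adjusted p = 0.00141), and the call was kept whichever library was left out (0.95, adjusted p = 0.00606, without the library labelled KO saline replicate 1). KO AngII libraries held 41.5 ± 6.56 CPM of it. Endothelial markers summed to 985 to 1753 CPM in KO saline, 884 to 1169 CPM in WT saline and 692 to 1412 CPM in KO AngII. All 8 of these and all 8 general adipocyte markers had a positive log2 fold change in KO saline against WT saline. EdgeR called 0 of either list, and their part was not tested. Among 20 genes of phospholipase C, IP3 receptors and protein kinase C, 0 were called by edgeR, with 1 to 6 per comparison at an unadjusted p under 0.05, 0 or 1 called by DESeq2 and 0 to 5 by limma voom. Prkca, a calcium-dependent protein kinase C, had 1.12 for AngII in KO (adjusted p = 0.140) and Prkch, another isoform, 0.83 for KO saline against WT saline (adjusted p = 0.105).

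Of 7 genes of receptor desensitisation, Grk5, a kinase that phosphorylates active receptors, fell 1.70-fold in KO AngII against WT AngII, from 81.1 ± 15.2 to 47.7 ± 9.70 CPM (SD, n = 4), with an edgeR adjusted p of 0.0361 and a log2 fold change of -0.76 (SE 0.17). The call was lost without any 1 of WT AngII replicates 3 and 4, KO saline replicates 2 and 3 and KO AngII replicate 4 (-0.77 to -0.63, adjusted p 0.0501 to 0.140). It was also lost with only the groups compared (adjusted p = 0.144) and without both KO AngII replicate 4 and KO saline replicate 1 (adjusted p = 0.0532). Fibroblast markers moved with this comparison, with a summed level of 9461 to 25544 CPM in WT AngII and 4367 to 7185 CPM in KO AngII. Of these 8 markers 2 were called lower, against 165 of 15984 genes. Macrophage markers summed to 374 to 1101 CPM in WT AngII and 273 to 437 CPM in KO AngII. All 8 had a negative log2 fold change (median -0.93), with 0 called by edgeR and 8 at an unadjusted p under 0.05. The part of these cell types was not tested. Of 9 tested genes of nitric oxide and cGMP signalling, Npr1, the receptor for atrial natriuretic peptide, fell 2.11-fold in KO saline against WT saline, from 190.2 ± 45.9 to 90.0 ± 15.8 CPM, with an edgeR adjusted p of 0.0193 and a log2 fold change of -1.08 (SE 0.22). With the smooth muscle marker score it was at -0.64 (adjusted p = 0.113). The call was lost without any 1 of WT saline replicates 1, 3 and 4 and KO saline replicates 1 and 2 (adjusted p 0.0550 to 0.0664) and with only the groups compared (adjusted p = 0.0502). Of the 9 genes, 7 had a negative log2 fold change there (median -0.49), limma voom called 6 and DESeq2 4, and 5 passed an unadjusted p of 0.05. Of 10 genes of calcineurin and NFAT, Ppp3ca, a catalytic subunit of the phosphatase calcineurin, rose 1.45-fold in KO saline against WT saline, from 67.4 ± 6.72 to 97.9 ± 6.86 CPM (adjusted p = 0.0471). That call was kept in 4 of 16 fits with 1 library left out, those without WT saline replicate 2, WT AngII replicate 3 or KO AngII replicate 3 or 4, and lost in the other 12 (adjusted p 0.0554 to 0.156). It was also lost with the replicate block (adjusted p = 0.0529), with only the groups compared (0.0753), without the filter on low counts (0.119), without both KO AngII replicate 4 and KO saline replicate 1 (0.0549) and with the smooth muscle marker score (0.34, adjusted p = 0.302).

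Of 8 genes of the N-degron pathway, 0 were called by edgeR, with 0 to 4 per comparison at an unadjusted p under 0.05 and 0 or 1 called by DESeq2 and by limma voom. Ubr4, a ubiquitin ligase of this pathway, had an interaction of 0.63 (adjusted p = 0.388) and Ate1, the arginyltransferase, had 0.36 for KO AngII against WT AngII (adjusted p = 0.101). Of 12 other genes with an Rgs symbol tested, Rgs7bp and Rgs9bp included, 0 were called by edgeR in any comparison, with 0 to 3 at an unadjusted p under 0.05. DESeq2 called 1 and limma voom 2, in the average AngII effect alone. Rgs9bp, an anchor of the Rgs9 protein, had 1.52 for the average AngII effect (adjusted p = 0.103) and Rgs1, known from lymphocytes, an interaction of 2.74 (adjusted p = 0.406), both from few reads (25 or fewer for Rgs9bp and 48 or fewer for Rgs1).

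The genes most like each member over the 16 libraries were ranked by Pearson r of log2 CPM among 14325 genes. Libraries share scaling and tissue makeup, and these are the highest of many values, so no test is given. For Rgs5 they were Htr1b, a serotonin receptor gene (r = 0.92, Spearman 0.89), Myadm (0.90, 0.86) and Actg2, a smooth muscle actin gene that is also among the 10 smooth muscle markers (0.90, 0.90). For Rgs4 they were Tspyl5 (0.90, 0.94), Tmcc2 (0.88, 0.82) and Mkx, a transcription factor of tendon (0.87, 0.88). Those of Rgs2 were Pde4d, a cAMP phosphodiesterase gene (0.90, 0.89), Chordc1, a partner of heat shock protein (0.84, 0.80), and Aste1 (0.84, 0.73). Rgs3 was closest to Map3k13 (0.90, 0.71), Acvr2a, an activin receptor gene (0.86, 0.70), and Myo18a (0.84, 0.73). Rgs16 was closest to Ehd1 (0.88, 0.88), Pglyrp1 (0.88, 0.86) and Cdkn2aipnl (0.86, 0.81). The 5 lists of closest genes have no gene in common.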

How the data were processed

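Poly-A RNA of 16 libraries was sequenced. The authors deposited whole-number read counts for each gene, without normalisation. The submitters' processing notes list DESeq2 1.20.0, featureCounts 1.5.0-p3 and HISAT2 2.0.5, and the build GRCm39 (mm39). No source used here gives the strand setting or the handling of multi-mapped reads. Groups and replicate numbers came from the titles. Genes were filtered with edgeR's default (15984 kept, 13711 removed), scaled by TMM and fitted in 1 quasi-likelihood model over all 16 libraries, with 4 group means and 12 residual degrees of freedom (R 4.3.3, edgeR 4.0.16). P-values were two-sided and adjusted by Benjamini-Hochberg over all genes, with a threshold of 0.05. The fit was tested on simulated data. The biological coefficient of variation was 35.3%.

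Levels per kb used GENCODE exon lengths on GRCm38. The named genes were the 5 members, called genes of 8 pathway lists (up to 4 a list and comparison, or otherwise the 2 of lowest p, as values) and the 3 genes of highest r with each member (mean CPM of at least 1). Cell type markers, and Rgs8, Rgs9, Rgs17 and Rgs20, are given as values and were not chosen by that rule. The members and lists were chosen with earlier results of these data known. Alternatives used RLE scaling, no or a stricter filter (1 CPM in 4 libraries), DESeq2 1.42.0, limma 3.58.1 (voom), a replicate block, only the groups compared, no mitochondrially encoded genes, libraries left out and a smooth muscle score.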

Additional observations from a re-analysis of the deposited data

How the results depend on the processing

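The 5 members gave 30 log2 fold changes and 770 values under alternatives, of which 690 kept their direction and side of the threshold, 10 lost a call, 5 gained one and 65 changed sign. The sign changes were in differences that had not passed, and their cause was not tested. For pairwise comparisons the alternatives include fits without a library of a group not compared. Rgs5 in KO saline against WT saline stayed at -1.52 in each of those. The count of 690 is therefore no measure of how firm this only call was, which was lost in 7 fits with 1 library left out. The number of members called for AngII in KO was 1 under DESeq2 and 1 under limma voom in place of 0, and for the interaction it was 1 under limma voom in place of 0. For KO saline against WT saline it was 2 under limma voom, and 0 with the replicate block, 0 with only the groups compared and 0 with the smooth muscle score, in place of 1. It ran from 0 to 2 with 1 library left out. No pairing of libraries by replicate number was seen. The r of deviations from group means was -0.42 to 0.44 (median -0.037) for libraries of the same number. For different numbers it was -0.42 to 0.36 (median -0.0074), and 6 of 16 libraries were closest to their own number. With the replicate block, Rgs5 in KO saline against WT saline was at -1.53 (edgeR adjusted p = 0.0590).

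Sign changes on the log2 scale were as follows. For AngII in WT, Rgs2 was at -0.0074 without the filter and -0.012 without mitochondrially encoded genes, Rgs4 at -0.26 under voom and -0.038 with the replicate block, and Rgs5 at 0.043 with the smooth muscle score. Under limma voom, AngII in KO gave -0.042 for Rgs3 and -0.18 for Rgs4, KO against WT gave 0.049 for Rgs3 under saline and -0.019 for Rgs4 and 0.31 for Rgs5 under AngII, the interaction gave -0.13 for Rgs2 and -0.035 for Rgs3, and the average AngII effect gave -0.025 for Rgs3 and -0.22 for Rgs4. With KO saline replicate 1 and KO AngII replicate 4 both left out, AngII in KO gave -0.13 for Rgs3 and -0.52 for Rgs4, and KO against WT under saline 0.032 and 0.15. Under AngII that comparison gave -0.043 for Rgs3, -0.41 for Rgs4 and 0.095 for Rgs5, the interaction -0.075 for Rgs3 and -0.55 for Rgs4, and the average effect -0.095 and -0.24. KO against WT under AngII gave -0.010 for Rgs4 with the replicate block, and AngII in KO gave 0.17 for Rgs16 with the smooth muscle score.

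With 1 library left out, AngII in WT ranged from -0.27 to 0.86 for Rgs2, -0.13 to 0.032 for Rgs3, -0.13 to 0.19 for Rgs4, -0.41 to 0.0042 for Rgs5 and -0.027 to 0.95 for Rgs16. AngII in KO ranged from -0.014 to 0.18 for Rgs3, -0.32 to 0.49 for Rgs4 and -0.41 to 0.28 for Rgs16. KO against WT ranged from -0.27 to 0.11 for Rgs4 under saline, and under AngII from -0.064 to 0.13 for Rgs3, -0.44 to 0.39 for Rgs4 and -0.47 to 0.070 for Rgs5. The interaction ranged from -0.23 to 0.89 for Rgs2 and -0.37 to 0.46 for Rgs4, and the average effect from -0.036 to 0.071 for Rgs3, -0.14 to 0.27 for Rgs4 and -0.031 to 0.46 for Rgs16. The number of all genes called by edgeR ranged from 3 to 115 for AngII in WT (71 with all libraries), 6 to 32 for AngII in KO (8), 105 to 1744 for KO saline against WT saline (481), 100 to 845 for KO AngII against WT AngII (324), 2 to 12 for the interaction (3) and 42 to 252 for the average effect (166). DESeq2 called 280, 734, 1362, 1230, 104 and 666 genes in these comparisons, and limma voom 254, 561, 3197, 580, 173 and 549. Depth limits Rgs16 most, with 7 to 110 reads per library.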
